A study of Rattus norvegicus with 6 samples.

Results

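The genes described here are 9 targets of the tumour suppressor p53 and regulators of apoptosis: Cdkn1a, Mdm2, Ccng1, Plk2, Btg2, Gadd45a, Bax, Bcl2l1 and Mcl1. They were followed in fetal rat lung epithelium with and without mechanical strain. Members were all probe sets whose symbol in the platform annotation was one of these 9 names. That gave 12 of the 15923 probe sets on the array, belonging to 7 genes. The only probe set that lists Bax names a second locus as well, so no value is given for Bax, and Btg2 was not analysed here. Of the 12 probe sets, 9 were bright enough to be tested, among 9519 tested in all, and each of the 7 genes had at least 1 of them.

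p53 is a transcription factor that accumulates after DNA damage and other stresses. Its targets halt the cell cycle, repair DNA, limit p53 itself or start apoptosis. In the mitochondrial route to apoptosis, proteins of the Bcl-2 family decide whether the outer mitochondrial membrane is opened, which releases cytochrome c and activates caspases. Several of the same genes also answer to other signals, among them the stress factor ATF4 for Gadd45a and growth factor signalling for Mcl1 and Plk2. In the lung, p53 and its target p21 are best known from injury of the alveolar epithelium by oxygen, toxins or overdistension.

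The cells were type II epithelial cells of CD rats, of both sexes, isolated at embryonic day 19, although the labels of 1 control give neither stock nor sex. They were plated on flexible silastic membranes covered with collagen 1 in medium without serum. Controls stayed unstrained for 16 h. The strained group was stretched cyclically by 5%, at 60 cycles per min, during 15 min of every hour, and was held at a constant 2.5% distension during the other 45 min. There were 3 cultures per group, in 3 pairs of 1 control and 1 strained culture, and each pair came from a litter of its own, so the replicates are litters.

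Array medians ranged from 162 to 199 signal units. The epithelial marker Epcam was bright on all arrays, at 11148 to 13088. The type II marker Sftpc read 1111, 1358 and 1228 in controls and 1633, 2419 and 1563 in strained cultures. Its log2 difference was 0.57 ± 0.12 (limma, adjusted p = 0.12). By contrast 4 of the 6 tested type II genes had negative differences, as had 3794 of all 7163 genes tested. Among them Slc34a2 was at -0.77 ± 0.20 (limma, adjusted p = 0.221). Of 8 type II marker genes with a probe set of their own, Sftpa1 and Napsa were too dim to be tested. Type I markers were bright too, with Pdpn at 7964 to 10733 and Ager at 5396 to 5980 over all arrays. The 6 type I probe sets summed to 16358 to 19318 and the 9 type II probe sets to 9694 to 10235. Being sums over different probe sets, they do not compare the amounts of the cell types. In the type II sum Nkx2-1 alone read 3809 to 5308. The 6 endothelial probe sets summed to 202 to 377. Of the erythroid markers only Hbb was tested. It read 207, 293 and 268 in controls and 40.3, 82.8 and 316 in strained cultures, a difference of -1.13 ± 0.35 (limma, adjusted p = 0.308). Leukocyte markers summed to 2049 to 2610 in controls and 1508 to 2690 in strained cultures. Within that list Ptprc did not exceed 36.8, Cd14, Cd68, Cd74 and Csf1r lay between 148 and 343, and Lyz2, which type II cells express too, read 938, 1068 and 1576 in controls and 604, 758 and 1455 under strain. Of the 5 leukocyte genes tested 4 had negative differences, none called in limma, with Lyz2 at -0.41 ± 0.13 (adjusted p = 0.347). Smooth muscle and fibroblast markers were present: their summed signal was 26937 to 34258 in controls and 22596 to 31720 in strained cultures. Of the 6 tested genes 5 had negative differences, none called in limma. Acta2 was at -0.66 ± 0.12 (limma, adjusted p = 0.0506), with pair values of -1.05, -0.50 and -0.43. Col1a2 was at -0.61 ± 0.15 (limma, adjusted p = 0.173) and Col1a1, the 1 positive gene, at 0.18 ± 0.09. Other probe sets of Col1a2 and Col1a1 gave -0.20 and -0.05. The part of these cell types in the results below was not tested, and in such bulk samples fewer cells of a type and less RNA per cell cannot be told apart. Within each pair the control and the strained array were run on different fluidics modules, so module and group cannot be told apart.

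The sequence that p53 recognises consists of 2 adjoining 10-base motifs. The 250 bases before each gene start in RefSeq (build GRCr8) were searched for it, allowing 1 mismatch in 20 bases and no spacer. This rule was settled after the promoters of the members had been read and the Cdkn1a match seen, so the count of members says nothing about them beyond their letters. A match was held by 15 of 33465 such windows (0.0448%), among them those of Cdkn1a and Ccng1. With no mismatch allowed, no window of any gene matched. With up to 2 mismatches 0.275% of windows matched, with the same 2 members, and with 1 mismatch and a spacer of up to 13 bases 0.427% matched, with Gadd45a in addition. The stretches of Cdkn1a and Ccng1 are shown because both genes are classical p53 targets with bright probe sets here. Capitals mark the 20-base match, which ends 181 bases before the start of Cdkn1a and 222 bases before that of Ccng1. The Cdkn1a stretch lies at chr20:7150707-7150774 on the plus strand and the Ccng1 stretch at chr10:25685075-25685126 on the minus strand.
Cdkn1a: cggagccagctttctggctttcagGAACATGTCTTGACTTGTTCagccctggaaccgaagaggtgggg
Ccng1: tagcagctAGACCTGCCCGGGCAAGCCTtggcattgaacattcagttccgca

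Promoter entries existed for 8 of the 9 members. Mdm2, whose p53 sites are known from its first intron, had no p53 match in its window under any of these rules. Other elements were searched on both strands. The cyclic AMP response element TGACGTCA, bound by CREB and ATF proteins, occurs in 1.59% of all windows and was found in those of Plk2 and Btg2. The octamer ATTTGCAT occurs in 1.56% and was found in that of Gadd45a. The stretches of Plk2 (chr2:43702446-43702501, plus strand) and Gadd45a (chr4:97486873-97486928, minus strand) are shown with the element in capitals, as the letters these windows hold for factors other than p53. The composite ATF4 motif TGATGNAA, present in 3.4% of windows, was found in windows of Bcl2l1 and not in that of Gadd45a. A match describes the letters in a window and does not show binding.
Plk2: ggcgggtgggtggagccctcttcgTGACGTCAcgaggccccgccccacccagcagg
Gadd45a: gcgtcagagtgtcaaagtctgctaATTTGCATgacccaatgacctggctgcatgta

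The strained and unstrained cultures of each litter were compared to find the transcripts that mechanical force changes. With limma and the pair as a block, none of the 9 tested member probe sets was called (adjusted p under 0.05), where 0.326% of all tested probe sets were. At an unadjusted p of 0.05, 2 of the 9 passed, Mdm2 and Ccng1, against 9.44% of all tested probe sets. Their differences had opposite signs, with Mdm2 higher and Ccng1 lower in strained cells. The median log2 difference of the 9 was -0.07 and that of all tested probe sets -0.02, and the median size without regard to sign was 0.12 for both (0.125 before rounding).

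**Figure D1:**
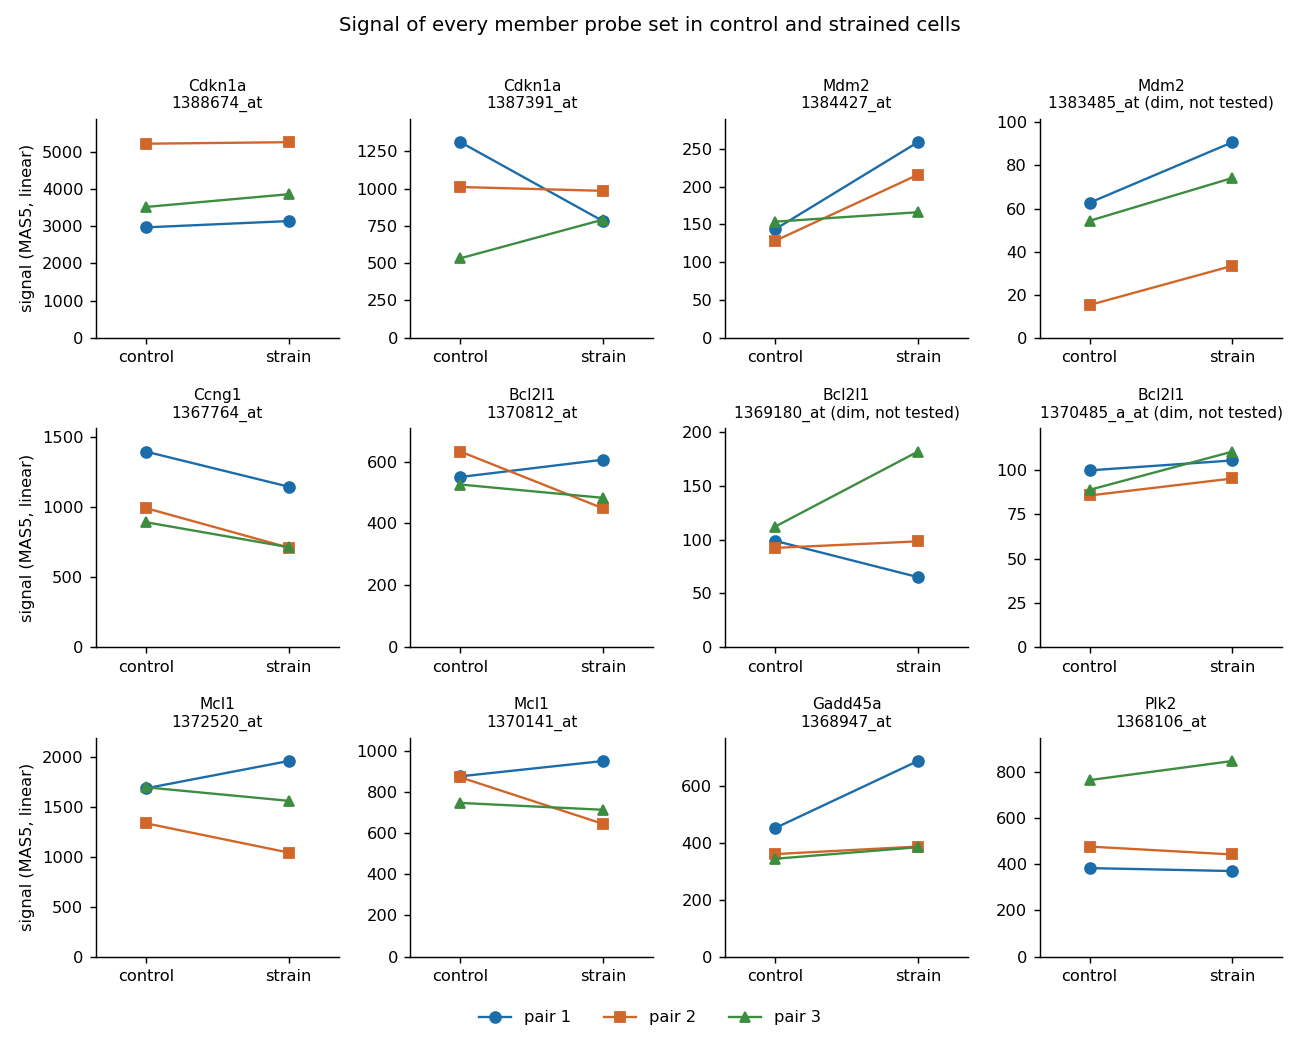
Signal (MAS5, linear scale from 0) of the 12 member probe sets in control and strained cells, with a line for each litter pair. Both Mdm2 probe sets are higher and Ccng1 is lower in strained cells in all 3 pairs, while the pairs of the second Cdkn1a probe set, of both Mcl1 probe sets and of the brightest Bcl2l1 probe set go different ways.

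Cdkn1a encodes p21, the inhibitor of cyclin-dependent kinases through which p53 arrests the cell cycle. Its brighter probe set (1388674_at) lay at the 96.7th percentile of mean signal on the array. It read 2968, 5219 and 3517 in controls 1, 2 and 3, and 3138, 5259 and 3860 in the strained cultures of the same litters. The groups overlapped almost entirely and the order of the litters was the same in both. The log2 difference was 0.08 ± 0.09 (SE, adjusted p = 0.871), a 1.05-fold ratio with a 95% interval from 0.921 to 1.20. Over the pairs, by contrast, the mean signal of the highest exceeded that of the lowest 1.72-fold. The highest was pair 2 and the lowest pair 1, which used the same chip lot. They differed in both litter and run day, which cannot be told apart here.

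The other Cdkn1a probe set (1387391_at) gave a less steady reading. It went from 1312 to 782 units in pair 1, stayed at 1012 and 986 in pair 2, and went from 533 to 793 in pair 3. The log2 difference was -0.07 ± 0.20 (adjusted p = 0.956), with pair values of -0.74, -0.04 and 0.56. Leaving out pair 1 turned it to 0.26 and leaving out pair 3 gave -0.39, so its sign rests on single pairs. The brighter probe set stayed between 0.05 and 0.11 under all 12 alternative settings. Those of block, filter and variance trend cannot move the estimate, and each of its pair values was positive.

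Mdm2 encodes the ubiquitin ligase that marks p53 for degradation and is itself induced by p53, which closes a feedback loop. Its tested probe set (1384427_at) was of middling brightness, at the 49.2nd percentile. It read 143.5, 128.2 and 153.6 in controls and 258.8, 215.7 and 166.1 in strained cultures. All 3 strained values exceeded all 3 control values, which held for 1 of the 9 tested member probe sets and, in either direction, for 6.07% of all tested. The mean was 142 ± 12.8 (SD, n = 3) in controls and 214 ± 46.4 (n = 3) under strain. The log2 difference of 0.52 ± 0.21 was the largest among the members, with a 95% interval from 0.06 to 0.99, and ranked 630th of 9519 by p (limma, unadjusted p = 0.0312, adjusted p = 0.471). The difference was 0.79 in pair 1 (0.785 before rounding), 0.68 in pair 2 and 0.10 in pair 3. Without pair 1 it was 0.39 and without pair 2 it was 0.44, and the unadjusted p then rose to 0.166 and 0.165.

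A second Mdm2 probe set (1383485_at), at the 23.3rd percentile, was too dim to be tested. It read 62.7, 15.2 and 54.3 in controls and 90.8, 33.4 and 74.2 in strained cultures. It too was higher in each pair, by 0.44, 0.66 and 0.36 on the log2 scale, although the groups overlapped. A fit without the filter on dim probe sets gave it 0.49 ± 0.27 (limma, adjusted p = 0.766). Being so close to background, it adds little precision to the value of Mdm2.

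Ccng1 encodes cyclin G1, which recruits a phosphatase to MDM2 and, unlike most cyclins, is induced by p53. It read 1393, 990 and 890 in controls and 1143, 709 and 712 in strained cultures, so the groups overlapped because the litters differed. Within litters it was lower under strain in all 3 pairs, by -0.28, -0.47 and -0.32. That was 1 of the 9 tested member probe sets, and 16.5% of all tested were lower in all pairs. The log2 difference was -0.36 ± 0.12, a ratio of 0.781 with a 95% interval from 0.648 to 0.941, and ranked 359th of 9519 (limma, unadjusted p = 0.014, adjusted p = 0.369). Leaving out a pair kept it between -0.40 and -0.30. The unadjusted p was 0.13 without pair 2 and 0.169 without the pair block.

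Gadd45a encodes a small nuclear protein of growth arrest and DNA repair that responds to p53 and also to ATF4. It read 453, 361 and 345 in controls and 690, 388 and 386 in strained cultures. The strained culture of pair 1 stood above the rest, and the other 2 strained values lay within the range of the controls. The log2 difference was 0.28 ± 0.16 (adjusted p = 0.643), with 0.59 in pair 1 against 0.10 and 0.16 in the others. Without pair 1 it was 0.13. Gadd45a, Mdm2 and the brighter Cdkn1a probe set were the 3 of 9 that were higher in all 3 pairs, where 13.7% of all tested probe sets were.

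Plk2 encodes a polo-like kinase, a p53 target and an early response gene. It read 383, 476 and 763 in controls and 370, 441 and 846 in strained cultures. The log2 difference was 0.00 ± 0.14 (-0.002 before rounding, adjusted p = 0.999), with a 95% interval of the ratio from 0.808 to 1.23. The culture pairs differed far more than the groups: the pair with the highest mean exceeded that with the lowest 2.14-fold. Its sign was negative in pairs 1 and 2 and positive in pair 3, and the fitted difference turned to 0.02 without pair 1, 0.05 without pair 2 and 0.02 under quantile normalization.

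**Figure D2:**
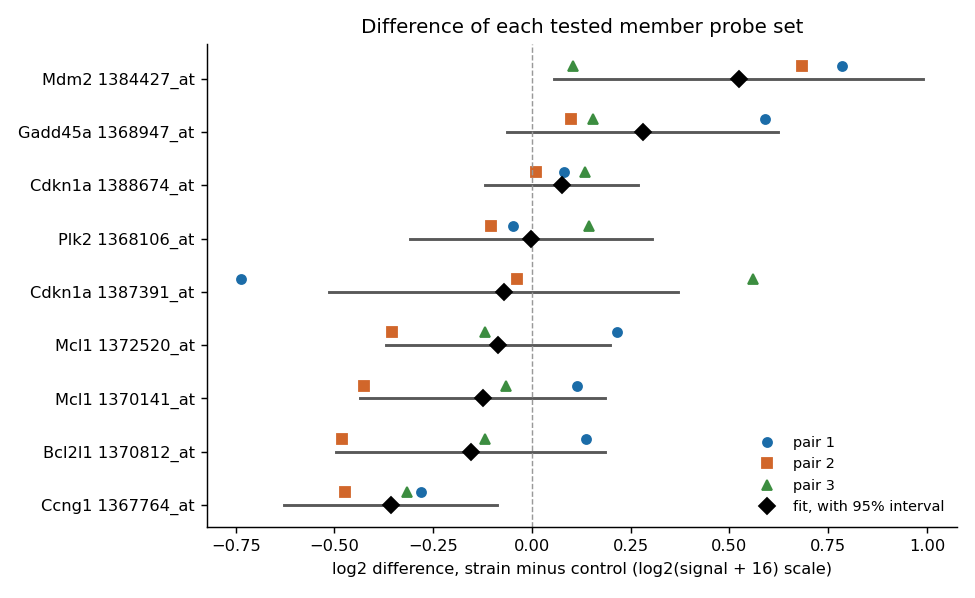
Log2 difference (strain minus control, on the log2(signal + 16) scale) of the 9 tested member probe sets, with the limma estimate and its 95% interval (diamond and bar) and the value in each litter pair. The interval lies above 0 for Mdm2, at 0.06 to 0.99, and below 0 for Ccng1, at -0.63 to -0.09, before any adjustment for the number of probe sets.

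Mcl1 and Bcl2l1 encode the survival proteins MCL-1 and BCL-XL, which hold the pore-forming proteins BAX and BAK in check. The brighter Mcl1 probe set (1372520_at) read 1684, 1334 and 1694 in controls and 1958, 1041 and 1559 in strained cultures. Its log2 difference was -0.09 ± 0.13 (adjusted p = 0.90), with a ratio interval from 0.774 to 1.15. The other (1370141_at) read 878, 873 and 748, then 953, 646 and 715, and gave -0.12 ± 0.14 (adjusted p = 0.863). Both were higher under strain in pair 1, by 0.22 and 0.12, and lower in pair 2, by -0.35 and -0.43. Without pair 2 both turned positive, at 0.05 and 0.03 (0.025 before rounding).

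The tested Bcl2l1 probe set (1370812_at) read 550, 633 and 526 in controls and 606, 449 and 483 in strained cultures. Its log2 difference of -0.15 ± 0.15 (adjusted p = 0.839) was made up of 0.14, -0.48 and -0.12 in pairs 1, 2 and 3, and was 0.01 without pair 2. The other 2 Bcl2l1 probe sets were too dim to be tested, and their pair values had other signs, at -0.50, 0.08 and 0.63 for 1369180_at and 0.07, 0.13 and 0.27 for 1370485_a_at. The signal of 1369180_at ranged from 92.4 to 112 in controls and 65.2 to 182 under strain, and 1370485_a_at from 85.7 to 99.9 and 95.3 to 111. Unfiltered fits gave them 0.07 ± 0.30 and 0.16 ± 0.25 (limma, adjusted p = 0.984 and 0.943).

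**Figure D3:**
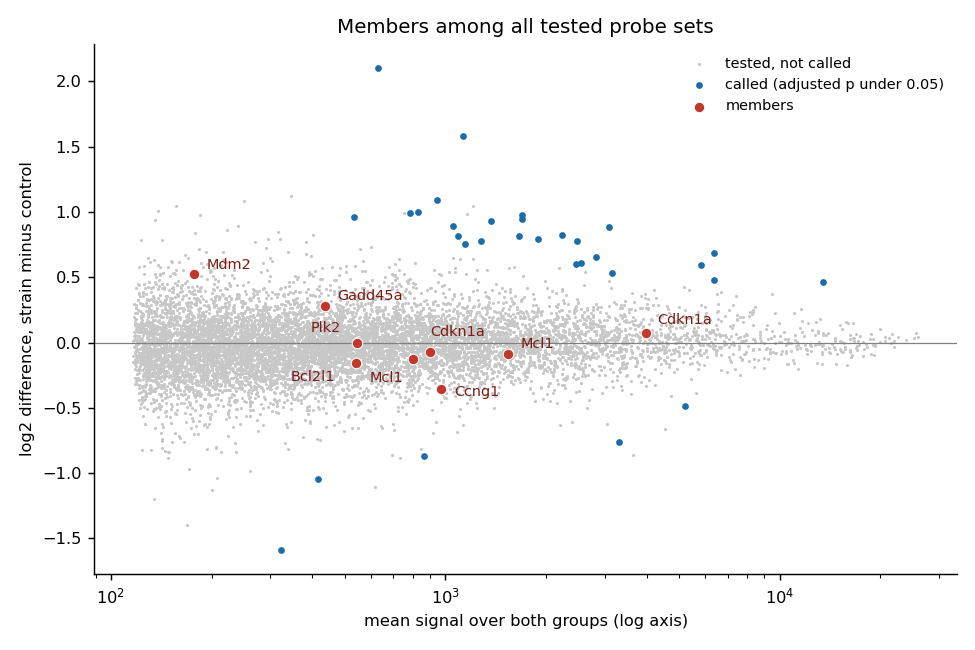
Log2 difference (strain minus control) against the mean signal over both groups (log axis) for all 9519 tested probe sets, with the 31 called ones in blue and the 9 member probe sets in red. The members lie within the band of probe sets that were not called, with Mdm2 at 0.52 near its upper side and Ccng1 at -0.36 near its lower side.

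The wider pathway and the paralogs of the members held no called gene either. These genes came from 5 lists, with the paralogs as 1 of them. Apaf1, Btg1 and Ccng2 stand in more than 1 list and were counted once here. The 108 listed names include aliases, such as Rfwd2 for Cop1. Of them 65 had a tested probe set of their own, the brightest of which stood for the gene. None was called in limma (lowest adjusted p = 0.159), where 0.349% of all 7163 genes tested were. With so small a share, the absence of a called gene among 65 says little about them. At an unadjusted p of 0.05, 9 of the 65 (13.8%) passed, against 9.56% of all genes tested. The median log2 difference of the 65 was -0.07 and that of all genes -0.01. Negative differences were found for 40 of the 65 and for 3794 of all 7163 genes tested. In all 3 pairs, 8 of the 65 (12.3%) were higher and 15 (23.1%) lower, against 14.3% and 16.2% of all genes tested.

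Of 17 other p53 target genes, 8 had positive and 9 negative differences, with a median of -0.03, and 2 had an unadjusted p under 0.05. Apaf1, the scaffold on which cytochrome c activates caspase 9, read 391.9, 394.6 and 622.3 in controls and 247, 242 and 521 in strained cultures. Its log2 difference was -0.52 ± 0.16 (adjusted p = 0.289), and a dimmer probe set gave -0.32 ± 0.26. Perp, a p53 target that also serves in desmosomes, read 3554, 2964 and 2184 in controls against 4527, 3589 and 2621, a difference of 0.30 ± 0.09 (adjusted p = 0.308). Its other probe set gave 0.06 ± 0.11, with pair values of 0.36, -0.08 and -0.10. The probe sets of Perp thus differed in size, and in direction in pairs 2 and 3. Zmat3, an RNA-binding p53 target, and Ephx1, the microsomal epoxide hydrolase, were at -0.26 ± 0.13 and -0.29 ± 0.14.

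Among p53 regulators, 10 of 13 tested genes were negative, with a median of -0.08, where 3794 of all 7163 genes tested were negative. p53 itself, and Mdm4, were not analysed here. Hipk2, a kinase that phosphorylates p53 after damage, was lower in each pair: 1532, 2231 and 3014 in controls became 1116, 1693 and 2203. Its difference of -0.43 ± 0.10 had the smallest p of the 65 genes (adjusted p = 0.159). Trim28, a corepressor that works with MDM2, read 5947, 6071 and 5524 in controls and 7027, 8282 and 6346 in strained cultures, without overlap, at 0.30 ± 0.08 (adjusted p = 0.257). The ribosomal protein genes Rpl5 and Rpl11, whose free products bind MDM2, were at -0.14 ± 0.08 (-0.135 before rounding) and -0.08 ± 0.07.

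The other Bcl-2 family genes, 12 tested, had a median of 0.05, and Bik alone had an unadjusted p under 0.05. Bik, a BH3-only promoter of apoptosis, was at -0.46 ± 0.18 (adjusted p = 0.440) and lower in all 3 pairs. Bid, a BH3-only protein that caspase 8 cleaves, was at 0.18 ± 0.15, Bnip3 at 0.20 ± 0.17 and Bok at -0.12 ± 0.11. Of 16 caspases and their regulators, 12 were negative, with a median of -0.10, where 3794 of all 7163 genes tested were negative. Birc5, the gene of survivin, which acts in mitosis as well as in cell survival, was at -0.43 ± 0.16 (adjusted p = 0.391). The executioner caspase gene Casp6 was at -0.40 ± 0.17 and the inflammatory caspase gene Casp4 at 0.34 ± 0.17 (adjusted p = 0.481 and 0.612).

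Paralogs of the members were compared as well. Of 10 tested 7 were negative, with a median of -0.15, where 3794 of all 7163 genes tested were negative. Plk1, the mitotic polo-like kinase, was at -0.40 ± 0.15 and Gadd45g at -0.41 ± 0.18 (adjusted p = 0.422 and 0.506). Gadd45g was thus negative where Gadd45a was positive, but its pair values ran from -0.92 in pair 1 to 0.03 in pair 3. The antiproliferative genes Btg1 and Btg3 were at -0.12 ± 0.07 (-0.125 before rounding) and -0.26 ± 0.15.

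**Figure D4:**
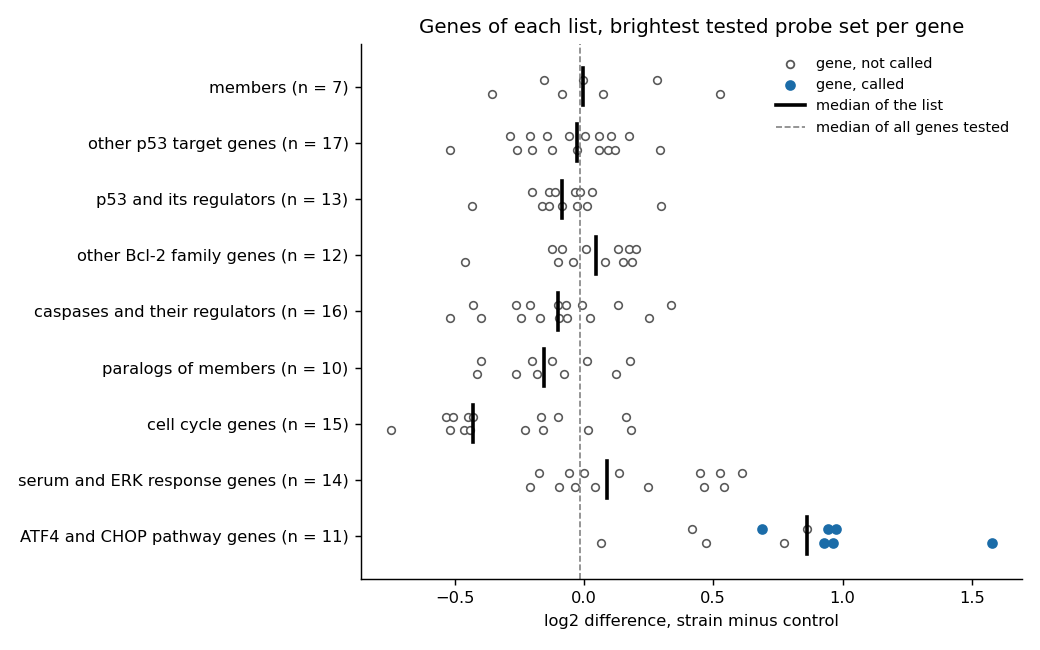
Log2 difference (strain minus control) of each gene of 9 lists, taken from its brightest tested probe set, with called genes filled, the median of each list as a bar and the median of all genes dashed. Called genes appear only in the ATF4 and CHOP list, at the right; the 7 member genes spread from -0.36 to 0.52 around a median of 0.00.

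Genes of the ATF4 and CHOP stress pathway, which shares Gadd45a with p53, served as the comparison list. This list was chosen with earlier results of these data known, so its counts describe it and are no independent support. All 11 tested were positive, where 3369 of all 7163 genes tested were. Their median was 0.86, and 6 were called, against 0.349% of all genes tested. They were Herpud1, Chac1, Atf4, Asns, Atf5 and Trib3, and the transcription factor gene Atf4 read 6038, 4725 and 3802 in controls and 10222, 7725 and 5764 in strained cultures. Its log2 difference was 0.69 ± 0.08 (adjusted p = 0.00499). The count of 6 depends on the fit: it was 0 with no pair block or no trend of variance on intensity, 1 with run day or chip lot as the block, 3 when dim probe sets were kept, and 5 when any 1 pair was left out. The difference between this list and the members was not tested.

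Genes of the cell cycle had a median of -0.43 over 15 tested. Of these 12 were negative, as were 3794 of all 7163 genes tested. None was called, where 0.349% of all genes tested were, and 6 had an unadjusted p under 0.05, against 9.56% of those genes. Cdk1, the kinase of mitotic entry, was at -0.75 ± 0.16 (adjusted p = 0.108), Cdc20 at -0.52 ± 0.15, Mcm5 at -0.54 ± 0.16 and Ube2c at -0.51 ± 0.16 (-0.505 before rounding). Of 14 serum and ERK response genes 8 were positive and 6 negative, with a median of 0.09. None was called and 5 had an unadjusted p under 0.05, against the same shares of all genes. Ier2, Fosl1, Dusp6 and Klf6 were at 0.52 ± 0.13, 0.61 ± 0.17, 0.54 ± 0.16 and 0.45 ± 0.15 (adjusted p from 0.173 to 0.352).

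Besides Cdkn1a and Ccng1, 2 genes with a p53 match in their promoter window had a tested probe set. The splicing factor gene Rnps1 was at 0.02 ± 0.11 and Tmsb15b2, of the thymosin family, at -0.14 ± 0.11 (limma, adjusted p = 0.972 and 0.777). The 4 genes therefore ran from the -0.36 of Ccng1 to the 0.08 of the brighter Cdkn1a probe set, and none was called.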

How the data were processed

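Each of 6 cultures was hybridised to 1 Affymetrix rat E230A array. The deposited values are linear intensities, 1 per probe set, which the submitters' processing notes credit to MAS5 5.0. The labels describe column purification of the RNA, whereas the run notes of all 6 arrays state that no column was used. Here each array was brought to a trimmed mean of 500 (2% at each end). Tests used log2(signal + 16), a scale on which dim probe sets change less than they do in signal. The 57 controls and the dimmest 40% of the others, below a signal of about 115.5, were left out. Symbols came from the platform annotation, checked by gene ID in RefSeq: 12783 probe sets had 1, 312 several and 2771 none.

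All 9519 probe sets were fitted in limma 3.58.1 (R 4.3.3) with pair and group as terms, an intensity trend for the moderated variances, and p-values adjusted by Benjamini-Hochberg over the whole table. Intervals are 95%. Of 11 degrees of freedom, 9 are borrowed from other probe sets (8.998 before rounding). The series' design gives each pair a litter. Deviations from group means correlated at 0.51, 0.48 and 0.44 within pairs (0.475 and 0.435 before rounding) and at -0.35 to -0.12 otherwise. Within a group of 3 arrays such deviations cancel out, which by itself tends to make the values between pairs negative. The values within pairs cannot be assigned to litter alone, since run day and chip lot are shared within pairs too. Pair 1 was run on a day of its own, and pair 3 used another chip lot.

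The members and the 8 other functional and 7 marker lists were chosen with earlier results of these data known. Named were all members, called list genes (up to 6) and otherwise up to 4 per list by smallest p. The marker genes named did not follow this rule. The fit was tested on simulated data. Alternatives were no replicate block, quantile normalization, pseudocounts of 1 and 64, a filter of 20% or none, no variance trend, run day or chip lot as the block, and each pair left out. Promoter sequences are RefSeq's. The motifs searched and the rule for a p53 site (no spacer, at most 1 mismatch) were chosen after the members' promoters had been viewed, and 5 other p53 rules were then run. The joint count of the 5 lists and the share of probe sets without overlap were likewise added after seeing the data.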

Additional observations from a re-analysis of the deposited data

How the results depend on the processing

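No member probe set was called under any of the 12 alternatives to the fit, and the lowest adjusted p was 0.189 for Mdm2 (without pair 3) and 0.284 for Ccng1 (without pair 3). Mdm2 kept a positive difference in all 12, from 0.39 to 0.73, and Ccng1 a negative one, from -0.40 to -0.30. Changing the block, the filter or the variance trend cannot move these estimates in this balanced design, and they stayed at 0.524 and -0.357. Nor can leaving out a pair turn a sign that all 3 pairs share, so the kept signs add no support. Gadd45a, likewise positive in all 3 pairs, stayed between 0.13 and 0.37. The median over the 9 member probe sets was -0.07 with no replicate block, which cannot move it either. It ran from -0.08 to 0.05 when a pair was left out. The count of all called probe sets, 31 in the paired fit, was 0 with no replicate block, 5 with no filter on dim probe sets, 1 without the variance trend, 1 with run day and 2 with chip lot as the block, and 9 to 52 when a pair was left out. Without the block 200 probe sets had an unadjusted p under 0.05, among them Mdm2. The counts of the gene lists under these settings were added after seeing the data. The p53 site rule changed which promoters matched: with no mismatch and a spacer of up to 13 bases 0.0388% of windows matched and no member did, and with 2 mismatches and that spacer 2.88% and 3 members did. With 3 pairs, changes of the size of Mdm2 on a probe set this dim could not be separated from none after adjustment. For the brighter Cdkn1a probe set the interval of the paired fit ends at a 1.20-fold increase, and for the other at 1.29-fold. The SE of the brighter probe set was 0.09 in the paired fit. It was 0.17 with run day as the block and 0.24 with chip lot or no block, which widens the interval.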
